A study of Drosophila melanogaster with 2 samples.

Results

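The genes of the small nuclear RNAs (snRNAs) are a family of short, non-coding genes scattered over the Drosophila genome. They were taken as all genes that the Ensembl annotation of the dm6 assembly gives the biotype snRNA on the chromosome arms. This gave 32 of 17896 genes, not counting transposable elements and pseudogenes. The annotation writes their names with the prefix snRNA:, which is left out in the text. Of these, 16 lie on 2L, 10 on 3R, 4 on 3L and 2 on X. Binding was read from chromatin immunoprecipitation with sequencing of whole embryos aged 0 to 8 h. The embryos came from a transgenic fly strain that expresses the protein of CG10959 fused to eGFP, and an antibody against GFP pulled the fusion down from chromatin sonicated to 200 to 800 bp. The only group has 2 biological replicates and no second condition, so the values below describe where peaks lie and how the replicates compare. No test was made, because there is no second group of samples, and p-values over genes are not given.

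A peak was assigned to a gene when its summit lay within 500 bp of the annotated start of that gene, and the strongest such peak was used. The list used unless another is named, called the main list, is the authors' pooled list of 3434 peaks past their reproducibility threshold (the irreproducible discovery rate, IDR). Each replicate also has its own thresholded list (2065 peaks for replicate 1, 2341 for replicate 2) and a ranked list of every candidate peak (132205 and 136173), and the pooled ranked list holds 148346. The signal of a peak is the authors' own value over a control. No label names its scale, and it was compared only within a list. No read totals come with the peak lists, and the depth is therefore unknown.

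Most snRNAs work in pre-mRNA splicing. U1 pairs with the upstream splice site and U2 with the branch point, U4 and U6 enter as a paired complex together with U5, and U11, U12, U4atac and U6atac take the matching places in the minor spliceosome. U7 acts in the 3' end formation of histone mRNAs, and 7SK holds the elongation kinase P-TEFb in an inactive complex. In Drosophila the genes of U6, U6atac and 7SK are transcribed by RNA polymerase III and those of the other named snRNAs by RNA polymerase II. Both kinds of promoter carry a proximal sequence element A (PSEA), which is bound by the snRNA activating protein complex (SNAPc) a short way upstream of the start.

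The PSEA was present in the promoters as the reference sequence has them, and it gives a fixed point for the peak positions below. The letters TTCCCAA, part of the PSEA, were searched on both strands of the 250 bases before and 50 bases from each start. They occurred in 26 of the 32 snRNA genes (81.2%), against 5.26% of 13945 protein-coding genes and 5.28% of all genes. In these 26 genes a match on the strand of the gene began 55 to 61 bases upstream of the start, with a median of 58. The remaining genes were 7SKb, LU, U2:38ABb, U4:25F, U6:96Ab and U6:96Ac. The variant TTCTCAA, looked for after these windows were seen, began 57 to 64 bases upstream in 5 of them and was in 4.65% of protein-coding promoters, and 7SKb had neither. A match of letters is a description and does not show that SNAPc was bound. The windows from 80 to 21 bases upstream are shown for the 9 genes with a main-list peak, for U1:95Cc, the U1 copy without one, and for U6:96Ab, a polymerase III gene with the variant. They are from the RefSeq copy of the Release 6 assembly and read 5' to 3' on the strand of the gene, with TTCCCAA in capitals.
snRNA:U1:95Ca (chr3R:23859651-23859710, minus strand): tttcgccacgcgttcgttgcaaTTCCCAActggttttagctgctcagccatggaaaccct
snRNA:U1:21D (chr2L:901675-901734, minus strand): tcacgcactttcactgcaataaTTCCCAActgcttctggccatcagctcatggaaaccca
snRNA:U1:95Cb (chr3R:23827790-23827849, plus strand): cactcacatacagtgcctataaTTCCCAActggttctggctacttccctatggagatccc
snRNA:U1:82Eb (chr3R:4948117-4948176, minus strand): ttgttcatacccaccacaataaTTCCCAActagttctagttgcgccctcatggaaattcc
snRNA:U2:34ABb (chr2L:13215759-13215818, plus strand): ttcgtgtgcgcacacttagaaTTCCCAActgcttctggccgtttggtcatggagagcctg
snRNA:U4:39B (chr2L:21215199-21215258, minus strand): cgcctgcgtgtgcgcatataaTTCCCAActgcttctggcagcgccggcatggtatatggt
snRNA:U5:63BC (chr3L:3090721-3090780, plus strand): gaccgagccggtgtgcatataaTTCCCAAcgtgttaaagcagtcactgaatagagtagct
snRNA:U12 (chr3L:16653689-16653748, plus strand): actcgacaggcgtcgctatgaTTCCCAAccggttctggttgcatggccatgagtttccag
snRNA:7SKa (chr3R:7475017-7475076, minus strand): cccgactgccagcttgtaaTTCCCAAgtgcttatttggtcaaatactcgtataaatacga
snRNA:U1:95Cc (chr3R:23826254-23826313, plus strand): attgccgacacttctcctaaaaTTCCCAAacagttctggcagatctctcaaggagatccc
snRNA:U6:96Ab (chr3R:24556612-24556671, plus strand): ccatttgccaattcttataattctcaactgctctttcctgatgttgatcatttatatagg

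A main-list summit was assigned to 9 of the 32 snRNA genes (28.1%, 95% Wilson interval 15.6 to 45.4). By the same rule the share was 9.62% of protein-coding genes and 8.46% of all genes, a ratio of 2.92 to the protein-coding share. Other classes of short non-coding genes had lower shares, at 4.46% of 269 snoRNA genes and 2.76% of 290 tRNA genes. The 32 are all of the snRNA genes on the arms, so the interval describes neither a sampling of genes nor the spread between replicates. It treats genes as independent, which members at the same locus or with the same sequence are not. The count depends on the list: the conservative pooled list held 8 of the 9, all but U12 (25%, against 9.06% of protein-coding genes). The list of replicate 2 held 6 (18.8%, against 7.69%), and that of replicate 1 held 4 (12.5%, against 6.61%). No snRNA peak was among the strongest 500 of the main list, where the ranks of the 9 ran from 626 to 3123.

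**Figure D1:**
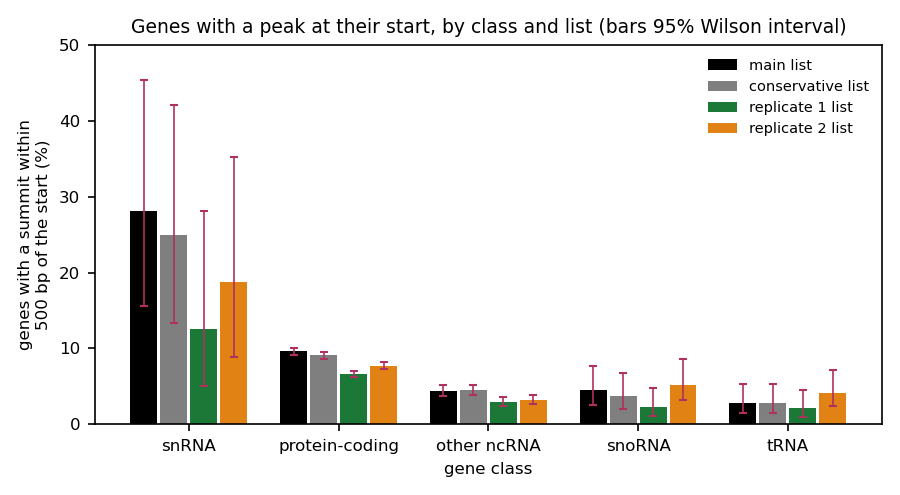
Share of genes of each class with a summit within 500 bp of the gene start (y axis, percent), in the main, conservative and single-replicate thresholded lists. The 95% Wilson intervals treat genes as independent and do not show the spread between replicates. The snRNA bars run from 12.5% to 28.1%, each above the protein-coding bar of the same list, and their intervals are wide.

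Counts by snRNA type rest on 1 to 7 genes each, and differences between types were not tested. Among the U1 genes with a peak, U1:21D, U1:95Ca and U1:95Cb have the same transcribed sequence and are not separate observations. U1 genes had a main-list peak in 4 of 5 cases, U2 genes in 1 of 6, U4 genes in 1 of 3, U5 genes in 1 of 7 and U6 genes in 0 of 3. Of the minor spliceosome genes U12 had one, and U11, U4atac and U6atac had none. Of the 2 genes of 7SK, 7SKa had one, and U7 and LU had none. By polymerase this was 8 of 25 genes for polymerase II and 1 of 6 for polymerase III, with LU not assigned. Genes inside introns of protein-coding genes had a peak in 3 of 16 cases and the others in 6 of 16.

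All of the 9 summits lay inside the transcribed part of the snRNA gene, at or downstream of the start and downstream of the PSEA. They lay 0 to 292 bp downstream of the start with a median of 119 bp, and the 7 left when the lowest and the highest are set aside lay between 79 and 149 bp. At protein-coding genes main-list summits lay mostly upstream. The median of their 1341 summits was 120 bp upstream (the quartiles were 199 and 40 bp upstream), 18.7% lay at or downstream of the start and 4.62% in that stretch of 79 to 149 bp, which the snRNA summits themselves set. The median was 179 bp upstream at the 8 tRNA genes with a peak and 294 bp upstream at the 12 snoRNA genes with one. From the first base of the PSEA to the summit the distance was 58 to 353 bp, with a median of 177. The peaks are 360 bp wide as deposited, and 5 of the 9 reached the first base of the PSEA. Counted upstream of the start only, 1 snRNA gene had a main-list summit, U1:95Cb, whose summit is the first transcribed base, and the share fell to 0.395 times that of protein-coding genes.

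**Figure D2:**
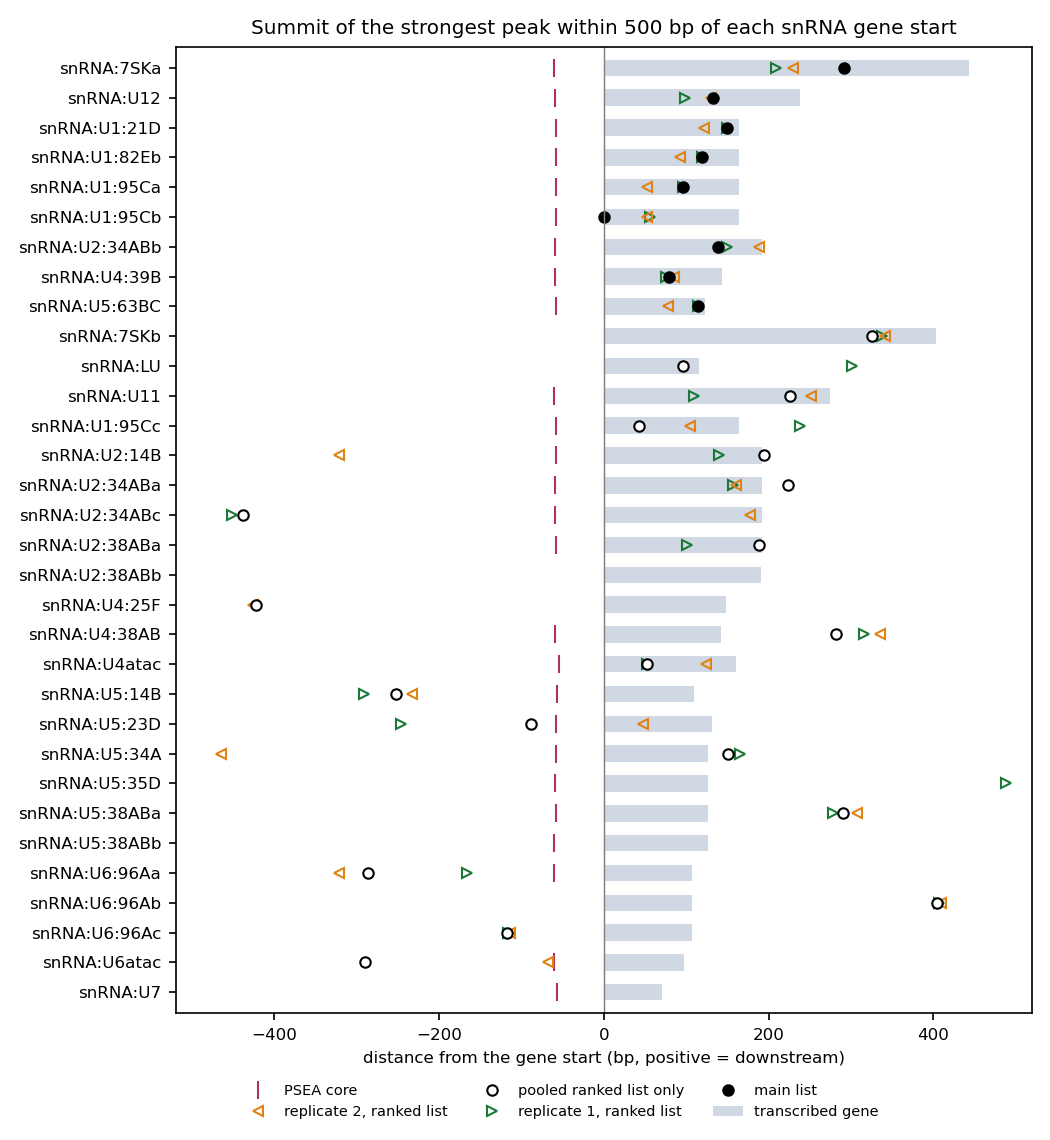
Each row is an snRNA gene, with the transcribed gene as a grey bar from its start at 0 and the x axis giving the distance in bp, positive downstream. Filled circles are main-list summits, open circles the strongest pooled ranked summit of genes without one, triangles the ranked summits of each replicate, and red ticks the PSEA core. The 9 filled circles all lie on grey bars, to the right of the PSEA ticks.

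The same side was found in each replicate's own ranked list. At these 9 genes the strongest ranked summit was downstream of the start in 9 of 9 cases in replicate 1 and in 9 of 9 in replicate 2, and the summits of the replicates lay 4 to 43 bp apart, with a median of 27. Over every snRNA gene with a ranked summit it was at or downstream of the start in 22 of 27 cases (81.5%) in replicate 1 and in 19 of 26 (73.1%) in replicate 2, and at protein-coding genes in 51.3% and 52.2%. These snRNA counts include the 9 genes. At the 19 other snRNA genes with a pooled ranked summit, it was at or downstream in 12 (63.2%), against 52.8% at protein-coding genes. Of these 19, U2:34ABc and U5:34A share a peak, as do U6:96Ab and U6:96Ac. The ranked lists thus do not show the upstream position that protein-coding summits have in the main list. Both replicates also enter the pooled list, so this is not a separate set of samples.

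**Figure D3:**
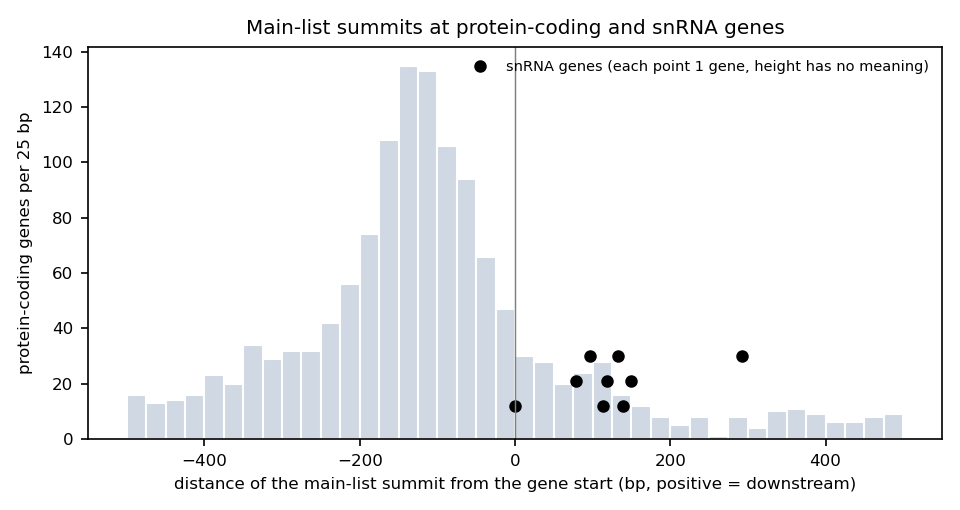
Histogram of the distance from the gene start to the main-list summit (x axis, bp, positive downstream) for 1341 protein-coding genes (y axis, genes per 25 bp), with the 9 snRNA genes as points whose height has no meaning. The protein-coding histogram is highest upstream of 0, and the snRNA points lie from 0 to 292 bp.

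The sequence under the summits restates the main-list positions base by base, from the same summits and gene coordinates, and adds no further evidence. The 61 bases centred on the main-list summit are given for a representative of each spliceosomal type with a peak and for U1:95Cb, the gene whose summit falls on the first transcribed base. Capitals mark bases of the snRNA gene and lower case its flanks.
snRNA:U1:95Ca (chr3R:23859504-23859564, minus strand): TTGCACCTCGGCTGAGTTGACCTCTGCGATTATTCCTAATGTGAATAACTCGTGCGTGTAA
snRNA:U1:95Cb (chr3R:23827840-23827900, plus strand): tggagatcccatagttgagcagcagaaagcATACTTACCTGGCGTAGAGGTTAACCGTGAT
snRNA:U2:34ABb (chr2L:13215948-13216008, plus strand): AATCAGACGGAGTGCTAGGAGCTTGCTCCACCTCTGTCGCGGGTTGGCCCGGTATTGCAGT
snRNA:U4:39B (chr2L:21215069-21215129, minus strand): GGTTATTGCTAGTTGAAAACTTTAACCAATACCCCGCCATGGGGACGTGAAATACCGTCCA
snRNA:U5:63BC (chr3L:3090885-3090945, plus strand): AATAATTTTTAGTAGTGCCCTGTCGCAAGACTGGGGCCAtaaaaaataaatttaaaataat
snRNA:U12 (chr3L:16653872-16653932, plus strand): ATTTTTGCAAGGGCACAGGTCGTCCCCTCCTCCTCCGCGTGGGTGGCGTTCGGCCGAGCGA

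The strongest snRNA peak was at U1:95Ca (FBgn0004185, chr3R:23859467-23859630, minus strand). Its signal was 244 in the main list (rank 626), 93.5 in the ranked list of replicate 1 (rank 997) and 136 in that of replicate 2 (rank 541), and the peak, at chr3R:23859354-23859713, was in both replicates' thresholded lists. The gene lies between other genes, and the nearest start site of a protein-coding gene, that of Pli, is 30518 bp from the summit. U1:21D (FBgn0003916, chr2L:901491-901654, minus strand) had signals of 163, 75.9 and 89.98 in the pooled list, replicate 1 and replicate 2, and was in both replicates' lists as well. Its summit was 149 bp into a gene of 164 bp, and 2861 bp from the start of Lsp1beta.

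U1:95Cb and U1:82Eb were weaker and less often past the threshold. U1:95Cb (FBgn0004186, chr3R:23827870-23828033, plus strand), in an intron of CG34355, had signals of 137 in the main list, 56.3 in replicate 1 and 79.2 in replicate 2, where only replicate 2 passed the threshold. The ranked summits of the replicates were 56 and 52 bp downstream, inside the gene, while the pooled summit was at the start. A second main-list peak, with a summit 200 bp downstream, had a signal of only 5.72. U1:82Eb (FBgn0004183, chr3R:4947933-4948096, minus strand) had signals of 106, 45.8 and 59.4 and was in neither replicate's list. U1:95Cc (FBgn0004187), 1536 bp from U1:95Cb in the same intron, had only ranked peaks, with signals of 40.9 in the pooled list, 22.6 in replicate 1 and 27.1 in replicate 2. It was thus the lowest of the 5 U1 genes in each list.

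U2, U4 and U5 had a main-list peak at a single copy each. U2:34ABb (FBgn0004192, chr2L:13215839-13216030, plus strand) had a signal of 200 in the main list (rank 855), 100.5 in replicate 1 and 93.0 in replicate 2, and was in both replicates' lists. Its summit, 139 bp into the gene, was 628 bp from the start of kek4, the shortest distance to a protein-coding start among the 9. U5:63BC (FBgn0003938, chr3L:3090801-3090923, plus strand) had signals of 146, 62.4 and 81.0, and was also in both. U4:39B (FBgn0003930, chr2L:21215036-21215178, minus strand), in an intron of Atg18b, had signals of 152, 65.1 and 95.6, and passed in replicate 2 but not in replicate 1, where its score was 205 of 1000. The other copies of these types were lower in the pooled ranked list. Signals there were 10.7 to 51.8 for the U2 copies that had a peak, 18.3 to 51.8 for those of U5, and 72.4 at both U4:25F and U4:38AB.

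The remaining peaks were at U12 and 7SKa, genes without near-identical copies. U12 (FBgn0041721, chr3L:16653769-16654006, plus strand), in an intron of Baldspot on the opposite strand, had the lowest signal of the 9, at 77.6 in the main list (rank 3123), 35.7 in replicate 1 and 46.6 in replicate 2. 7SKa (FBgn0065099, chr3R:7474553-7474996, minus strand) had signals of 122, 38.4 and 67.9. Neither gene was in a single replicate's list. Close to 7SKa, 1040 bp downstream of its start and beyond its end, lay a far stronger main-list peak (signal 750, rank 64, chr3R:7473826-7474079), and the part it has in the signal at 7SKa was not tested. The second 7SK gene, 7SKb, had a pooled ranked signal of 22.4. Its global alignment with 7SKa was 48.9% identical, no more than that of the 250 bases upstream of the genes (48.8%), so it shows no marked likeness.

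The 9 summits were set apart from protein-coding start sites. The nearest one was 628 to 30518 bp away, with a median of 4705 bp, and 7 of the 9 summits were beyond 1000 bp of any. Besides those given above, the nearest starts were those of CG1142 for 7SKa (923 bp), CG8679 for U4:39B (3445 bp), Ubc6 for U1:82Eb (4705 bp), Abl for U12 (6020 bp), CG34355 for U1:95Cb (7278 bp) and PAN3 for U5:63BC (8937 bp). The peaks at these snRNA genes were thus not ones that the same rule assigned to a protein-coding start. Such distances are not particular to the 9. From the start of the snRNA genes without a main-list peak they ran from 302 bp (U2:34ABa) to 18369 bp (U7). The share of all main-list peaks beyond 1000 bp was not counted.

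In all, 4 of the 9 genes were in both replicates' thresholded lists (U1:95Ca, U1:21D, U2:34ABb and U5:63BC), 2 in that of replicate 2 alone and 3 in neither. By the same rule 1341 protein-coding genes had a peak in the main list, 922 in that of replicate 1 and 1072 in that of replicate 2. How many of the protein-coding genes were in both or in neither was not counted. Signals were higher in replicate 2 than in replicate 1 at all of the 9 snRNA genes except U2:34ABb, but the scales of the lists differ between the replicates and this was not tested. In replicate 2 the 9 genes ran from 46.6 to 136 and the others with a ranked peak from 8.16 to 46.1, so that they did not overlap. In replicate 1 they ran from 35.7 to 100.5 and the others from 6.47 to 50.1, and U5:35D lay above 3 of the 9. Its replicate 1 summit, 488 bp downstream, lay within a main-list peak whose pooled summit, 544 bp downstream, was too far to be assigned. The 9 were chosen by the threshold of the pooled list, which both replicates make up, so this separation is no support for that choice.

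**Figure D4:**
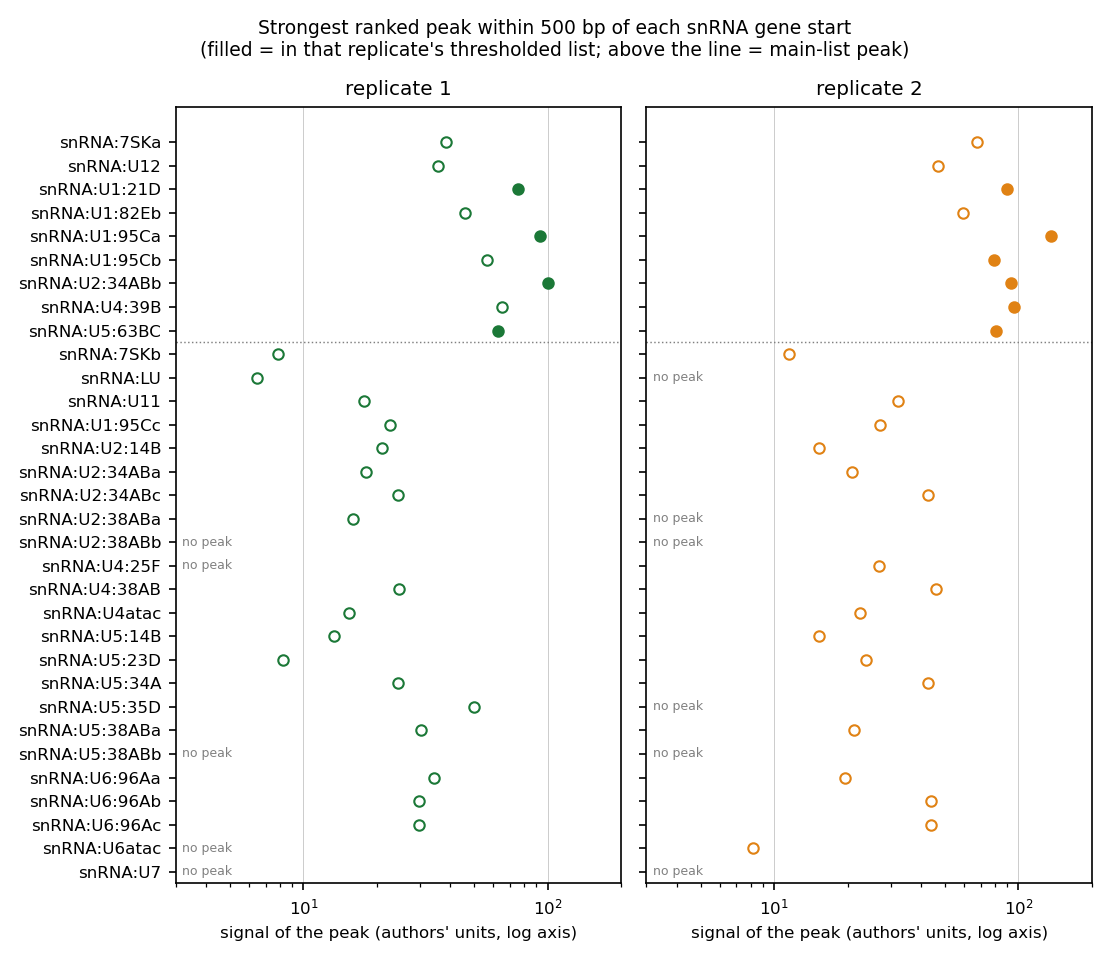
Signal of the strongest ranked peak within 500 bp of each snRNA gene start (x axis, log scale, authors' units), for replicate 1 (left) and replicate 2 (right), with filled circles for peaks in the thresholded list of that replicate. The 9 genes above the dotted line have a main-list peak and run from 35.7 to 100.5 on the left and from 46.6 to 136 on the right.

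The genes without a main-list peak mostly had a weak candidate. In the pooled ranked list 28 of the 32 snRNA genes had a summit within 500 bp, against 75.2% of protein-coding genes, and U2:38ABb, U5:35D, U5:38ABb and U7 had none. At the 19 genes with a ranked peak alone, signals ran from 4.05 to 72.4 with a median of 40.9, where protein-coding genes with a ranked peak, those of the main list included, had a median of 39.2. These summits were spread from 438 bp upstream to 405 bp downstream, and 6 of the 19 lay inside the snRNA gene. The strongest of each type were U4:25F (72.4, 423 bp upstream), U6:96Aa (70.7, 287 bp upstream), U2:34ABc and U5:34A (51.8, a single peak past the end of U5:34A and 438 bp upstream of U2:34ABc), U1:95Cc, U11 (37.8), U4atac (33.9), 7SKb, U6atac (19.2) and LU (4.05). U2:34ABc, whose transcribed sequence is that of U2:34ABb, had its strongest replicate 2 candidate 178 bp into the gene, with a signal of 42.6. U6:96Ab and U6:96Ac also shared a ranked peak (65.4), which lay between them, outside either gene. The nearest scores below the threshold of 830 were those of U4:38AB (597) and U4:25F (568), and the nearest above it were U1:82Eb (849) and U12 (878). On distance, U5:35D fell just outside, with a main-list summit 544 bp downstream (signal 95.4), beyond the end of the gene, and 7SKa at 292 bp was the farthest inside.

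Copies of an snRNA share reads, which limits what a peak says about a single gene. The 5 U1 genes were 98.2 to 100% identical over their length, and U1:21D, U1:95Ca and U1:95Cb were identical to each other. The 250 bases upstream were 51.8 to 59.6% identical between U1 genes, where those of 7SKa and 7SKb were 48.8% identical. Pairs of U2 genes were 98.4 to 100% identical, with U2:34ABb and U2:34ABc the same. The 3 U6 genes were identical, while U5 pairs reached 78.5 to 96.1% and U4 pairs 73.8 to 94.4%. No label says how reads that map to several places were treated.

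Measured as stretches of 50 bases that occur once in the genome, none of the transcribed sequence was single-copy at U1:21D, U1:95Ca, U1:95Cb, U2:34ABb, U2:34ABc, U2:38ABa and the 3 U6 genes, and all of it was at 7SKa, 7SKb, LU, U11, U12, U4:25F, U4atac, U6atac and U7. At U1:95Ca and U2:34ABb, none of the 50-base stretches that cover the summit occurred only once, so the share of the reads there that came from these copies cannot be told apart from that of their twins by sequence. At U1:21D it was 64%, at U1:82Eb 72%, at U1:95Cb 86%, at U4:39B 42%, and at U5:63BC, U12 and 7SKa all were single-copy. No label gives the read length, and longer reads or pairs would place more. Without U1:95Ca and U2:34ABb, a count chosen after the data were seen, 7 genes had a peak. The upstream 500 bp was single-copy throughout at each of the 9 genes.

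**Figure D5:**
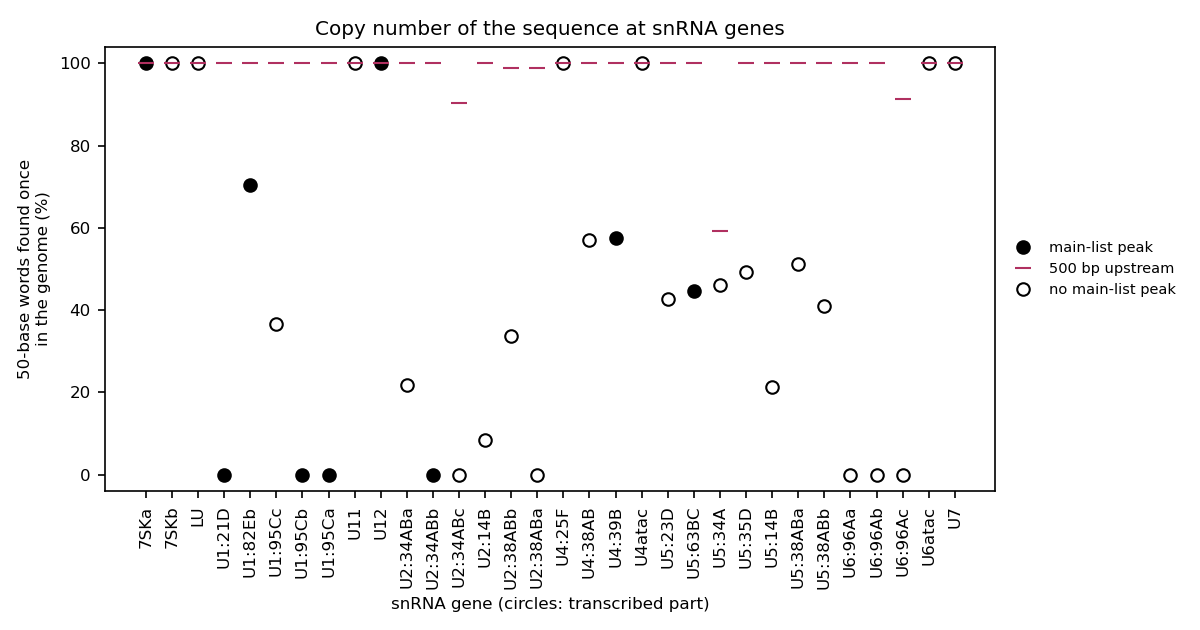
Share of 50-base stretches that occur once in the genome (y axis, percent) for the transcribed part (circles) and the 500 bp upstream (red dashes) of each snRNA gene (x axis). Filled circles, genes with a main-list peak, lie at 0% for U1:21D, U1:95Cb, U1:95Ca and U2:34ABb and at 100% for 7SKa and U12.

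Elements of other promoter classes were counted in the same windows. TATAAA was in 15 of the 32 (46.9%) against 45.8% of protein-coding promoters. On the strand of the gene it began 31 bases upstream at 7SKa and 30 at U6atac. At U6:96Ab a match 30 bases upstream was on the opposite strand. At the other genes with it, matches on either strand began 66 to 242 bases upstream. CGATA, part of the element bound by BEAF-32, which can share bases with ATCGAT, was in 18 (56.2%) against 47.4%. In each of the near-identical U2 genes a CGATA match overlapped the start. In the identical U6 genes it lay inside the transcribed part, so the copies are not separate cases. The DREF core ATCGAT was in 2 (6.25%) against 23.3%, GGTCACA, part of the element bound by M1BP, in 1 (3.12%) against 9.70%, and GAGAGAG in 0 against 5.87%. These shares were not tested. Both strands were searched, and the windows do not include the summits of most snRNA peaks, which lie farther downstream.

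Genes whose products make or use snRNAs were looked up in the same way. The lists were drawn up by function, with earlier results of these data known, so the shares are not those of a blind choice. Of 75 such genes 13 had a main-list peak by the same rule (17.3%, against 9.62% of protein-coding genes), and 12 of the 13 summits lay upstream of the start. Genes of Integrator, the complex that cuts nascent snRNAs at their 3' ends, and of the little elongation complex had one in 6 of 18 cases, led by IntS9 (signal 271, summit 118 bp upstream), IntS6 (148), omd, also known as IntS5 (138), and IntS4 (112). SNAPc subunits, the TATA-binding proteins and the polymerase III initiation factors had one in 2 of 7 cases, at Bdp1 (333, 87 bp upstream) and Brf (329, 105 bp upstream), both components of the polymerase III initiation factor TFIIIB. None was at the SNAPc genes Pbp45, Pbp49 and Pbp95. Proteins of the spliceosomal particles had one in 4 of 22 cases, at U2af50 (291), Sf3b6 (149), snRNP-U1-C (137) and Sf3a2 (94.3). Genes of Sm proteins and U7 Lsm proteins had one in 1 of 9 cases, at SNRPG, the gene of Sm protein G (signal 209.5, summit 367 bp upstream). It was listed as SmG, a name matched to SNRPG after the peak was seen. Those of snRNP assembly, transport and capping had one in 0 of 14 cases and those of the 7SK complex and P-TEFb in 0 of 5. These counts were not tested. In the list of replicate 1 there were 8 such genes with a peak (10.7%, against 6.61% of protein-coding genes) and in that of replicate 2 there were 9 (12%, against 7.69%).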

How the data were processed

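Peak lists were used as the authors deposited them. Per the descriptions deposited with the samples, they are on dm6, were derived from sample and control alignments, and are ranked by IDR or thresholded on it, per replicate or pooled. No label, header or description names the aligner, the peak caller or the read length. The signal and the score of each peak are the authors' deposited values, and the score is a whole number up to 1000 that is 830 or more in the thresholded lists. All 3434 main-list peaks were found with the same score in the pooled ranked list used. No label ties 16 columns in the pooled ranked lists to a replicate, and these were set aside.

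Genes and starts were taken from Ensembl release 115 on the same assembly, and sequences from the RefSeq copy of Release 6, in which no peak or gene ran past the end of an arm. Distances follow the strand of the gene, and 0 is its first base. Copies of 50-base stretches were counted on both strands of the whole reference, and identity by global alignment. Of 76 listed symbols, 70 matched by symbol, 5 by an older name, and 1 named a gene listed already. SmG is an older name of 2 genes and was taken as SNRPG, the Sm protein, a match settled after its peak was seen. All members are accounted for, those with a main-list peak and the strongest other of each type are named, and up to 4 genes of each list. The members and lists were chosen with earlier results of these data known. The variant TTCTCAA, the share of G and C, the single-copy count and the use of any annotated start were chosen after the data were seen. Placement and copy counts were tested on simulated data with seed 1. The scripts ran on biopython 1.88, matplotlib 3.10.9, pandas 2.3.3, numpy 2.4.6 and scipy 1.17.1 under Python 3.11.15. Alternatives covered other lists, distances, sides, scores and backgrounds.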

Additional observations from a re-analysis of the deposited data

How the results depend on the processing

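The count of 9 snRNA genes kept within 1.5 times of itself in 8 of 11 alternatives. It was 8 at 200 bp, 10 at 1000 bp or with any base of the peak, and 9 and 11 in the pooled ranked list at scores of 830 and 540. It was 0 among the strongest 500 peaks, 1 upstream only, and 4 to 6 in the single replicates' lists. The ratio to protein-coding genes, 2.92, was 0.0 among the strongest 500, 0.395 upstream only, 1.89 to 2.44 in the single lists, and 2.5 to 3.67 otherwise, including 2.5 with any annotated start site, a setting chosen after the data were seen. The 13 pathway genes were 3 among the strongest 500 (4%, against 2.2% of protein-coding genes) and 8 to 9 in the single lists (10.7% to 12%, against 6.61% to 7.69%). The median summit position of 119 bp was 81.5 to 131.5 bp in the single lists, and the median signal of 146 was 141 to 149. The low counts upstream and among the strongest peaks follow from where and how strong the 9 peaks are. The cause of the lower counts in single lists was not tested. No paired analysis was possible because there is 1 group. Unknown depth limits every count, and weak peaks in ranked lists are not calls.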

Other observations

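The share of G and C under the main-list summits varied widely among the snRNA genes. In the 101 bases centred on the summit the share of G and C ran from 30.7% at U5:63BC to 65.3% at U12, with a median of 50.5% over the 9 genes, where the median over 3417 main-list peaks on the arms was 34.7%. The difference was not tested. The summits lie in transcribed snRNA sequence, but the windows reach into the flanks at some genes. At U5:63BC, for example, the summit was 114 bp into a gene of 123 bp. Where windows of U1 genes cover the same transcribed bases, which these copies share almost base for base, the values are not independent.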
